A study of Mus musculus with 24 samples.

Results

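The genes described here are the 2 liver X receptors (LXRs), Nr1h3 and Nr1h2, and 8 genes tied to them, Apoe, Cd5l, Abca1, Abcg1, Mylip, Srebf1, Lpcat3 and Apoc2. They were chosen by name, and all 10 had a count among the 55487 genes of the table. Of these, 9 were among the 14535 genes with enough reads to be tested, and Apoc2 was not. Apoe and Cd5l were put on the list because they were among the largest falls over time, so their change with time is described here without a test. Messenger RNA was sequenced in bone-marrow-derived dendritic cells (BMDCs), which were grown from marrow of mice aged 8 to 10 weeks in medium with supernatant that held the growth factor GM-CSF at 50 ng/mL. All mice carried floxed Arpc4 alleles, and Arpc4 is part of the Arp2/3 complex that builds branched actin. Control mice, called WT here, were ARPC4 Flox/Flox CD11c-Cre -/-. Knockout mice, called KO here, had the same floxed alleles with CD11c-Cre +/-, in which Cre is driven by the promoter of the CD11c gene, so that the deletion reaches only cells that have turned this promoter on. Cells were replated on days 4 and 7. Those floating in the medium were taken on days 7, 8, 9 and 10, with over 90% positive for CD11c per the labels, while attached cells were thrown away. Each genotype had 3 mice per day, which gave 8 groups of 3 and 24 libraries under 6 mouse numbers. Values of 3 libraries are given in the order 63, 65 and 66 for WT and 64, 67 and 68 for KO.

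LXRs are nuclear receptors that sense oxidized cholesterol (oxysterols) and the cholesterol precursor desmosterol. They bind DNA as pairs with retinoid X receptors (RXRs), hold target genes down with corepressors when no ligand is bound, and switch to coactivators when a ligand arrives. Their classical targets move cholesterol out of cells through the transporters Abca1 and Abcg1, load it onto apolipoprotein E, lower its uptake through Mylip (an E3 ubiquitin ligase), and raise lipid synthesis through Srebf1 and membrane phospholipid remodelling through Lpcat3. Macrophages are the immune cells in which this programme is best known, and the secreted protein Cd5l is an LXR target in them.

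LXR with RXR binds a pair of direct repeats known as DR4, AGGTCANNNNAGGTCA, in which 4 bases separate 2 copies of AGGTCA. The RefSeq start-site windows of the GRCm38.p6 assembly, 300 bases each, were searched on both strands for this motif with at most 3 mismatches. Of 32851 windows, 21.9% held such a match. Windows were found for 9 of the 10 genes, and those of 2 genes, Abca1 and Srebf1, held one, which is 2 of 14 windows (14.3%). Among 17 other LXR targets with a window, 4 genes had a match, and over all genes 24.5% had one. The 250 bases before 4 starts are shown, Abca1 and Srebf1 because of the match and Apoe and Cd5l because their levels were lowest late in the culture. Each reads 5′ to 3′ along the gene's strand, and capitals mark the match, which lies on the opposite strand. The Abca1 window is chr4:53159896-53160145 on the minus strand, the Srebf1 window before the third of its listed starts is chr11:60210472-60210721 on the minus strand, the Apoe window before its first listed start is chr7:19699189-19699438 on the minus strand and the Cd5l window is chr3:87357631-87357880 on the plus strand.
Abca1: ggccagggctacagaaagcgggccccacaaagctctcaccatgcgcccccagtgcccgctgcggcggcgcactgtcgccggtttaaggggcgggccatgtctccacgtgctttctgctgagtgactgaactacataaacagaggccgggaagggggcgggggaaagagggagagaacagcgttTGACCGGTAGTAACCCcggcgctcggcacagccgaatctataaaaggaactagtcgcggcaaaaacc
Srebf1: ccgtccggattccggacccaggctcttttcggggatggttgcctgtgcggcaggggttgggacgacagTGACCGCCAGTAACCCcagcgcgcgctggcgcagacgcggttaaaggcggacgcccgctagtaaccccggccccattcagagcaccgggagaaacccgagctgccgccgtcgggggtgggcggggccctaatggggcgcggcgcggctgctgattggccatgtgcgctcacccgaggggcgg
Apoe: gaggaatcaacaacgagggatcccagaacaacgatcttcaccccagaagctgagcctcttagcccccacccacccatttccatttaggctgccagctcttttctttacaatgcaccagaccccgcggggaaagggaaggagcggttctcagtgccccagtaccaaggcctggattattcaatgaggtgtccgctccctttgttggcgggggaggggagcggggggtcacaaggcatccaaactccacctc
Cd5l: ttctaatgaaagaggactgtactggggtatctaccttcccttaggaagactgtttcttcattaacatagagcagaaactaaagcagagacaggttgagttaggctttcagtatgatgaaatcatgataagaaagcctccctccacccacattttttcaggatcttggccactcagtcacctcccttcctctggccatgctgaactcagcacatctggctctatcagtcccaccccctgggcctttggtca

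Read in the direction of the motif, the match in front of Abca1 at chr4:53159947-53159962 and the one in front of Fasn (fatty acid synthase, another LXR target) at chr11:120824757-120824772 were the same 16 letters. The Srebf1 match at chr11:60210638-60210653 had the same 12 letters in its repeats, with a different spacer. Capitals here mark the repeats and lower case the spacer.
Abca1: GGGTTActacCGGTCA
Fasn: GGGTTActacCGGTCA
Srebf1: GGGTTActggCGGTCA
A match is a description of letters and not evidence of binding, and a window without one says only that these letters are not in it.

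Total counts per library ran from 19952047 to 31049798, with WT up to 28651870 and KO from 24030705. Arpc4 itself was at 188 to 270.3 CPM in WT and at 155 to 231 CPM in KO. CPM is a gene's count relative to the library total, which was scaled by TMM. Its means on days 7 to 10 were 192, 260, 228 and 220 CPM in WT and 169, 228, 201 and 181 CPM in KO. On each day the KO libraries of Arpc4 lay below the WT libraries without overlap. So did 4.99% of all genes on day 8 and 6.47% on day 9. The Y-linked gene Ddx3y had 56.5 to 83.9 CPM in 1 library of each group, 8 in all, and was at or below 0.136 CPM in the other 16. In WT that library carried mouse number 63 on every day, whereas in KO it carried number 64 on days 7 and 9, 68 on day 8 and 67 on day 10. In KO the signal therefore did not stay with 1 number, and the labels name mice of both sexes. The comparisons here use genotype and day only, and the fits that use the numbers are kept apart. Markers of dendritic cells summed to 2437 to 3402 CPM on day 7 and 4840 to 8273 CPM on day 10. Those of macrophages summed in WT to 3487.5 to 3867 CPM on day 7, 3734 to 4146 CPM on day 8, 2924 to 3044 CPM on day 9 and 2656 to 2745 CPM on day 10, and in KO to 3604 to 4598, 3192 to 4648, 2886 to 3624 and 2685 to 3464 CPM. From day 7 to 8, 4 macrophage markers of 14 were called higher and 2 lower in WT and 2 higher and 3 lower in KO, beside 43.4% of all genes called in WT and 42% in KO. From day 7 to 10, 18.9% of all genes were called higher in WT and 19.7% in KO, and 18.1% and 17.1% lower. Dendritic cell markers called higher numbered 8 of 12 in each genotype and those called lower 1 in WT and 0 in KO, with Cd209a, Ciita and Dpp4 the largest in WT. Macrophage markers called lower numbered 7 of 14 in each genotype and those called higher 2 in WT and 1 in KO. On the TPM scale 5 were lower and 2 higher in WT, and 4 lower and 1 higher in KO. Over all genes 47.3% were called on that scale in WT and 51.6% in KO. Spic, a transcription factor of iron-recycling macrophages, was called lower in the fit of counts, at -1.197 (WT) and -1.11 (KO) on the log2 scale. Neutrophil markers numbered 5 higher and 1 lower of 10 in WT and 0 and 2 in KO. Osteoclast markers numbered 1 higher and 3 lower of 5 in WT and 1 and 2 in KO. Of 10 tested markers of mast cells and basophils, lymphocytes and erythroid cells, 1 was higher and none lower in WT and 1 higher and 2 lower in KO. In bulk samples fewer cells of a type and less RNA per cell cannot be told apart.

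Apoe, which carries cholesterol and other lipids out of cells (ENSMUSG00000002985.16, at chr7:19696109-19699188 of GRCm38, as for all positions here, minus strand), was the most abundant of these genes per length on day 7 and ended about as far below its start in both genotypes. In WT it stood at 3267, 3232 and 2655 CPM on day 7, at 898, 959 and 846 CPM on day 8, at 443, 472 and 371 CPM on day 9 and at 349, 306 and 308 CPM on day 10. The KO libraries had 3691, 1961 and 3973 CPM on day 7, 890.5, 388 and 1392 CPM on day 8, 531, 192 and 441 CPM on day 9 and 131, 406 and 337 CPM on day 10. Every day 8 library was below every day 7 library of either genotype, and in WT each later day lay below the one before. In KO the libraries of days 8 and 9 overlapped, as did those of days 9 and 10. The level on day 10 was 10.5% of that on day 7 in WT, a log2 fold change of -3.25 (SE 0.436), and 9.07% in KO, a log2 fold change of -3.46 (SE 0.440). Most of that difference lay between days 7 and 8, with -1.76 in WT and -1.85 in KO, followed by -1.07 and -1.2 from day 8 to 9 and -0.42 in each genotype from day 9 to 10. The last KO step depended on the libraries kept, at 0.24 without those numbered 64 and -1.07 without those numbered 67. Given the Ddx3y levels, a KO number may not stand for 1 mouse on days 9 and 10.

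Cd5l, a scavenger-receptor-like protein that macrophages secrete (ENSMUSG00000015854.7, chr3:87357881-87371073, plus strand), was reduced to a smaller share of its start than Apoe in WT, and its low level in KO varied between libraries. WT libraries had 45.3, 37.8 and 39.9 CPM on day 7, 2.10, 3.48 and 2.43 CPM on day 8, 1.16, 1.35 and 0.909 CPM on day 9, and 0.926, 0.745 and 0.634 CPM on day 10, the last resting on 18 to 26 reads a library. KO libraries had 44.3, 11.6 and 43.3 CPM on day 7, 3.71, 1.54 and 6.59 CPM on day 8, 5.00, 1.37 and 3.07 CPM on day 9, and 1.52, 9.60 and 2.74 CPM on day 10. In WT each day lay below the one before except that days 9 and 10 overlapped, while in KO the libraries of days 8, 9 and 10 overlapped throughout. The day 10 level was 1.89% of that on day 7 in WT, a log2 fold change of -5.73 (SE 0.702), and 13.9% in KO, a log2 fold change of -2.85 (SE 0.573). The KO value was -2.16 without the libraries numbered 64 and -4.37 without those numbered 67, of which the day 7 one was the lowest of its group and the day 10 one the highest. From day 9 to 10 the KO estimate was 0.56, and it was -0.93 without number 67.

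**Figure D1:**
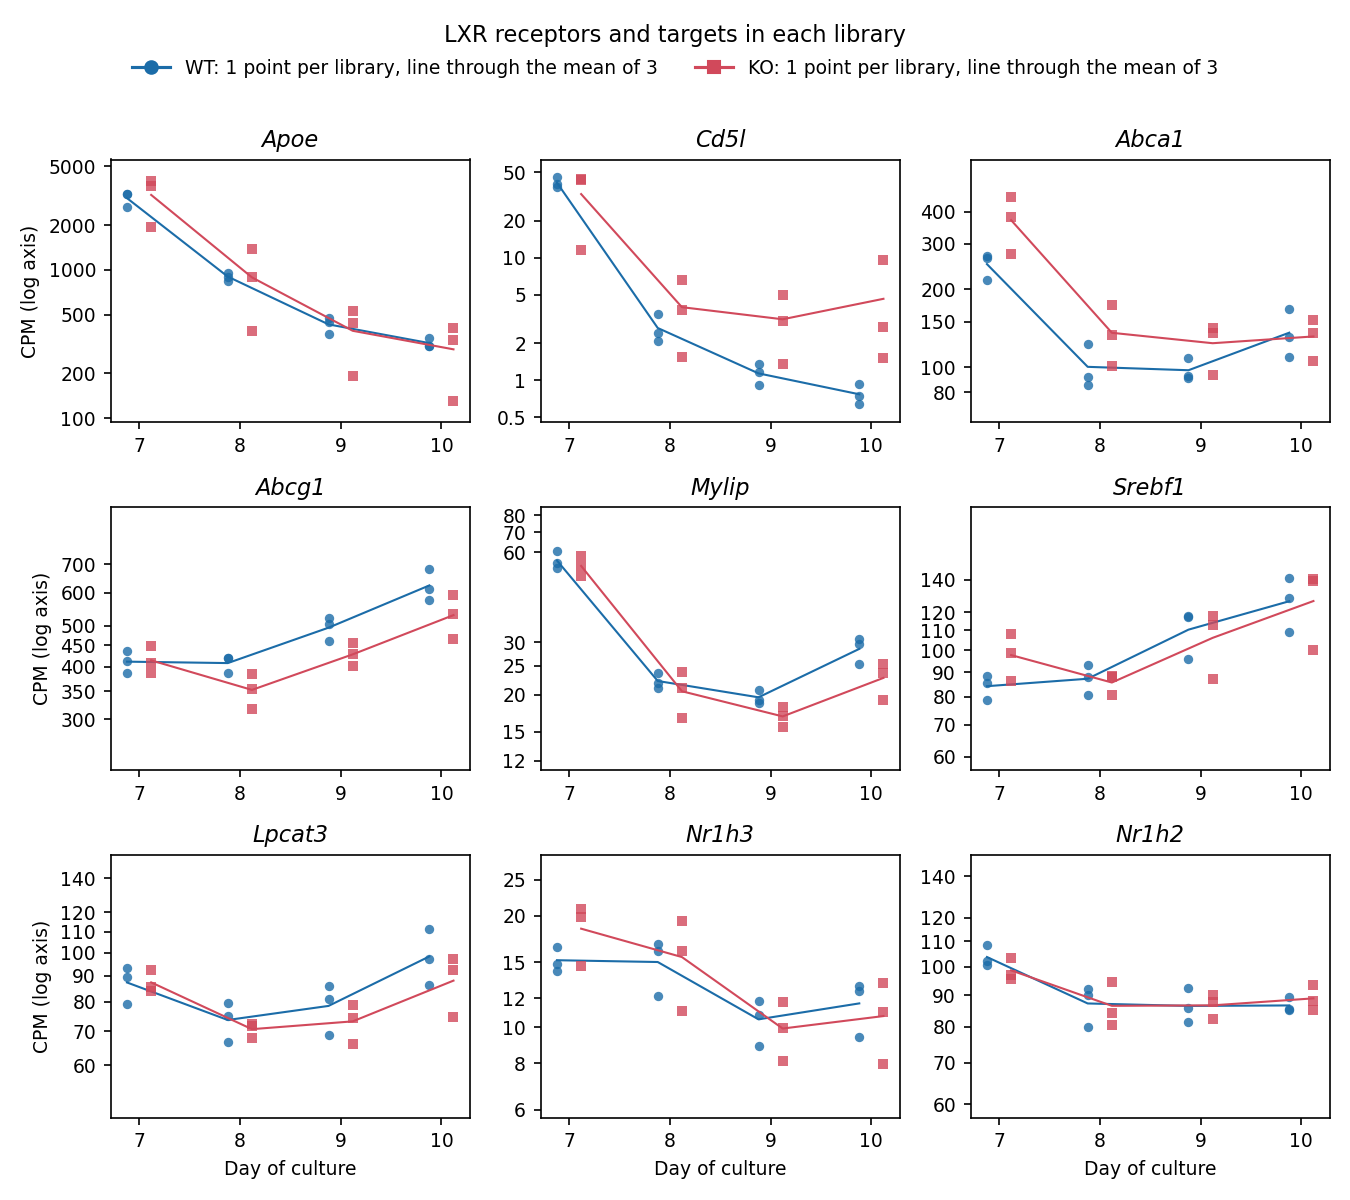
Level of 9 genes in CPM (vertical axes, logarithmic) against day of culture, with 1 point per library and lines through the means of the 3 libraries of each group, WT as circles and KO as squares. Apoe went from 2655 to 3267 CPM on day 7 to 306 to 349 CPM on day 10 in WT, Abcg1 and Srebf1 ended above their day 7 level, and the KO points of Apoe and Cd5l were spread more widely than the WT points.

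Pearson's r between the log2 CPM of Apoe and Cd5l was 0.884 over the 24 libraries, which share groups and days, and since both genes were chosen for their fall over time this value is largely fixed by that choice. By per-length abundance (TPM), Apoe on day 7 in WT was at 3788 ± 444 (SD, n = 3), followed by Abcg1 at 149 ± 7.61, Nr1h2 at 82.0 ± 2.99, Lpcat3 at 70.9 ± 5.33, Abca1 at 64.1 ± 7.49, Cd5l at 53.4 ± 4.67, Mylip at 46.2 ± 2.94, Srebf1 at 39.6 ± 1.90 and Nr1h3 at 16 ± 1.1. Lpcat3 overlapped with Abca1, and Abca1 with Cd5l, between libraries. By day 10 in WT, Apoe at 485 ± 54.8 TPM was nearer to Abcg1 at 276 ± 18.7 TPM, and Cd5l was at 1.23 ± 0.283 TPM, below Nr1h3 at 14.9 ± 2.63 TPM.

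**Figure D2:**
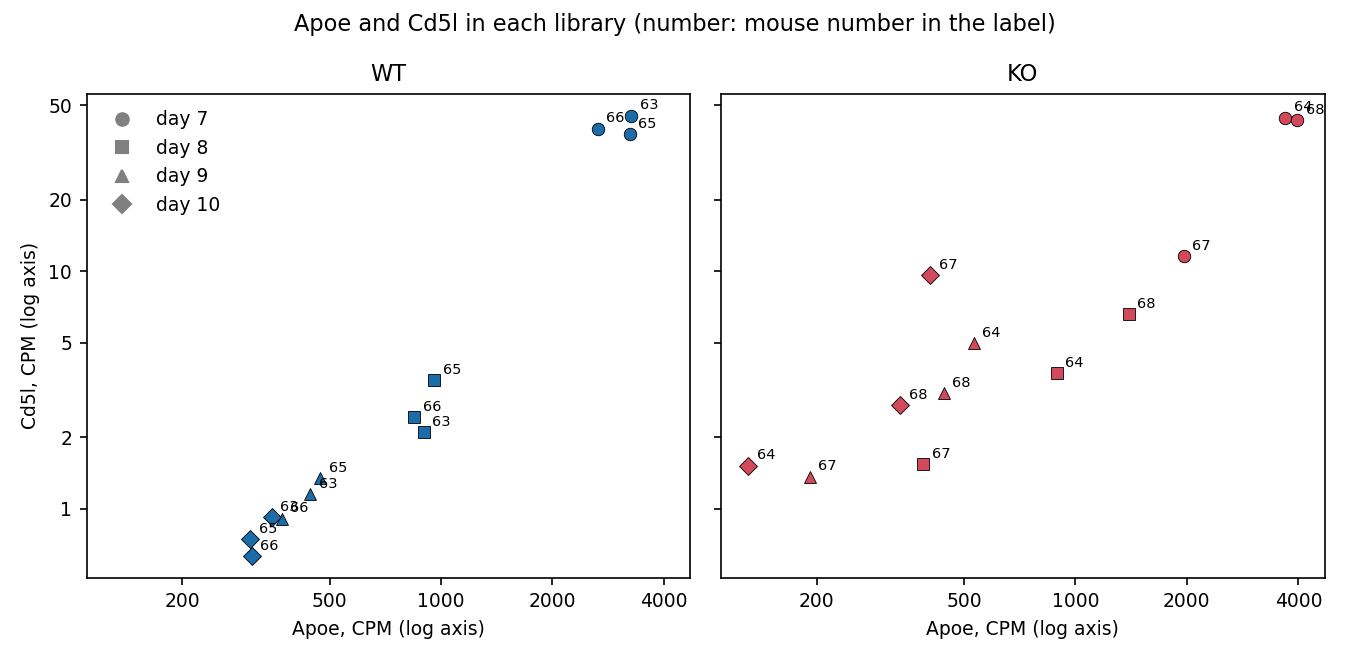
Cd5l level against Apoe level in each library, both in CPM on logarithmic axes, with WT on the left, KO on the right, symbols for the day and the mouse number of the label beside each point. WT libraries of 1 day lie close together, while in KO the library numbered 67 on day 10 had 9.60 CPM of Cd5l at 406 CPM of Apoe.

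The cholesterol exporters went opposite ways. Abca1, which passes cholesterol and phospholipid to lipid-poor apolipoproteins (chr4:53030787-53159895, minus strand), had 268, 265 and 218 CPM in WT on day 7, 85.6, 123 and 92.0 CPM on day 8, 92.2, 91.0 and 109 CPM on day 9 and 167, 109.5 and 131 CPM on day 10. In KO it had 454, 275 and 382 CPM, then 173, 101 and 133 CPM, 136, 93.5 and 142 CPM, and 106, 136 and 152 CPM. No library of days 8 to 10 reached the day 7 libraries of its genotype. It fell from day 7 to 10 by 0.88 on the log2 scale in WT (SE 0.217, adjusted p = 0.00323), and its log2 fold change in KO was -1.495 (SE 0.219, adjusted p = 3.24e-05). Here adjusted p is that of edgeR's quasi-likelihood test over all genes, and a gene is called at an adjusted p under 0.05. The step from day 7 to 8 was -1.32 in WT and -1.45 in KO, both called, and the later steps were not called. Without mouse 65 the WT value of the whole interval was -0.70 (adjusted p = 0.0674).

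Abcg1, which hands cholesterol on to larger lipoprotein particles (chr17:31057675-31117988, plus strand), rose. WT libraries had 435, 386 and 412 CPM on day 7 and 613, 575 and 684 CPM on day 10. KO libraries had 407, 387 and 448 CPM on day 7 and 467, 533 and 592 CPM on day 10. The days did not overlap in either genotype. For day 7 against day 10, the share of all genes without overlap was not counted. The log2 fold change was 0.60 in WT (SE 0.0955, adjusted p = 6.27e-05) and 0.36 in KO (SE 0.0952, adjusted p = 0.00599). The KO call did not hold with only the groups compared (0.35, adjusted p = 0.0735). Steps between consecutive days were 0.28 to 0.33 from day 8 on and near 0 or below it before. None was called by edgeR, but the step from day 9 to 10 in WT was called in 6 of 15 alternatives, from day 8 to 9 in WT in 3 and from day 7 to 8 in KO in 5. The WT step from day 7 to 8 was called in 1, limma on the TPM scale, where it was 0.22 (adjusted p = 0.0262). In KO the steps from day 8 to 9 and from day 9 to 10 were called in 2 and 1.

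Mylip, the ubiquitin ligase that limits cholesterol uptake (chr13:45389742-45412022, plus strand), followed Abca1. It had 55.2, 53.1 and 60.8 CPM in WT and 53.8, 50.1 and 58.2 CPM in KO on day 7, and 30.6, 25.3 and 29.5 CPM in WT and 23.7, 19.2 and 25.4 CPM in KO on day 10. In between it was lower still, from 15.6 to 20.7 CPM over the 6 libraries of day 9. The whole change was -0.98 in WT (SE 0.116, adjusted p = 2.75e-06) and -1.25 in KO (SE 0.116, adjusted p = 1.99e-07). The step from day 7 to 8 was called at -1.34 in WT and -1.40 in KO. The step back up from day 9 to 10 was called in WT (0.54, SE 0.118, adjusted p = 0.0169) and was 0.43 in KO (adjusted p = 0.128). The WT call did not hold once any 1 of the 3 WT mice was left out (adjusted p of 0.0998 to 0.301).

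Srebf1, the transcription factor that turns on fatty acid synthesis (chr11:60199089-60222581, minus strand), rose. WT libraries had 85.5, 78.9 and 88.3 CPM on day 7 and 129, 109 and 142 CPM on day 10, without overlap. KO libraries had 86.3, 108 and 98.9 CPM on day 7 and 140.4, 99.9 and 139 CPM on day 10, with overlap. The log2 fold change was 0.59 in WT (SE 0.132, adjusted p = 0.00165) and 0.37 in KO (SE 0.132, adjusted p = 0.0313). The KO call did not hold without the libraries numbered 63, 64 or 68 (adjusted p of 0.0601 to 0.310, with a value of 0.21 without those numbered 64) or with only the groups compared (0.36, adjusted p = 0.113). Lpcat3, which puts polyunsaturated fatty acids into membrane phospholipids (chr6:124663027-124704418, plus strand), was at 79.2 to 93.4 CPM on day 7 and 86.3 to 111 CPM on day 10 in WT and at 84.0 to 92.5 and 74.6 to 97.2 CPM in KO. Its log2 fold changes were 0.17 (SE 0.108, adjusted p = 0.232) and 0.01 (SE 0.108, adjusted p = 0.947). On the TPM scale the WT change was 0.44 and called (adjusted p = 0.0100), beside a median over all genes of 0.21. From day 7 to 8 it was at -0.25 in WT (adjusted p = 0.0741, called in 3 of 15 alternatives) and fell by 0.31 in KO (adjusted p = 0.0288). The KO call did not hold without the libraries numbered 64 or 68 (adjusted p of 0.0701 to 0.192) or on the TPM scale, where the step was -0.075 (adjusted p = 0.674). Srebf1 and Lpcat3 overlap genes on the opposite strand, Rai1 and Emg1, whose counts over all libraries were 49.9% and 52.8% of theirs. The library kits mark strand, but the strand setting of the counting is not given in the sources used here, so reads of these pairs may have been mixed.

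Nr1h3, which encodes LXR alpha (chr2:91184061-91202834, minus strand), had 16.5, 14.2 and 14.8 CPM on day 7 and 12.9, 9.41 and 12.5 CPM on day 10 in WT. It had 20.8, 14.7 and 19.9 CPM and then 7.99, 13.2 and 11 CPM in KO. Neither genotype's days overlapped, a pattern whose share over all genes was not counted. The change was -0.39 in WT (SE 0.210, adjusted p = 0.160) and a fall of 0.78 in KO (SE 0.209, adjusted p = 0.00605). The WT value was called with only the groups compared (-0.37, adjusted p = 0.0462). It was also called with the mouse as a block and KO numbers exchanged (-0.39, adjusted p = 0.0440). All 3 WT mouse numbers were lower on day 10, which follows from the lack of overlap. The KO value was -0.51 without the libraries numbered 64 (adjusted p = 0.139) and -0.75 without those numbered 68 (adjusted p = 0.0511). Nr1h2, which encodes LXR beta (chr7:44549616-44553951, minus strand), lay between 79.8 and 108 CPM in all 24 libraries. Its log2 fold change was -0.26 in WT (SE 0.0691, adjusted p = 0.00574) and -0.15 in KO (SE 0.0690, adjusted p = 0.0949), and the WT call was lost without mouse 66 (adjusted p = 0.0904). The direction turned on the TPM scale (0.023 in WT and 0.154 in KO). On that scale the median over all genes was itself at 0.21 in WT and 0.25 in KO, while the fit of counts had it at -0.015 and 0.0033. Relative to it Nr1h2 was at -0.19 and -0.095.

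Of the 7 tested genes other than Apoe and Cd5l, 5 were called between days 7 and 10 in each genotype. Over all genes 37% were called in WT and 36.8% in KO. Those called were Abcg1 and Srebf1 (higher) with Abca1 and Mylip (lower) in both genotypes, Nr1h2 (lower) in WT and Nr1h3 (lower) in KO. Over the steps between consecutive days, 8 of 42 tests were called, beside 16.2% over all genes. The count was 14 without the libraries numbered 67, 5 without those numbered 65 or 66, and 19 with the mouse as a block and KO numbers exchanged. Of the 8 calls, 7 lay between days 7 and 8, when 43.4% of all genes were called in WT and 42% in KO. They were Abca1, Mylip and Nr1h2 in both genotypes (Nr1h2 at -0.25 in WT and -0.19 in KO, called in neither on the TPM scale) and Lpcat3 in KO. The Nr1h2 step was called in 12 of 15 alternatives in WT, where it was lost without mouse 65 (adjusted p = 0.11) or 66 (adjusted p = 0.0676), and in 8 of 15 in KO.

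**Figure D3:**
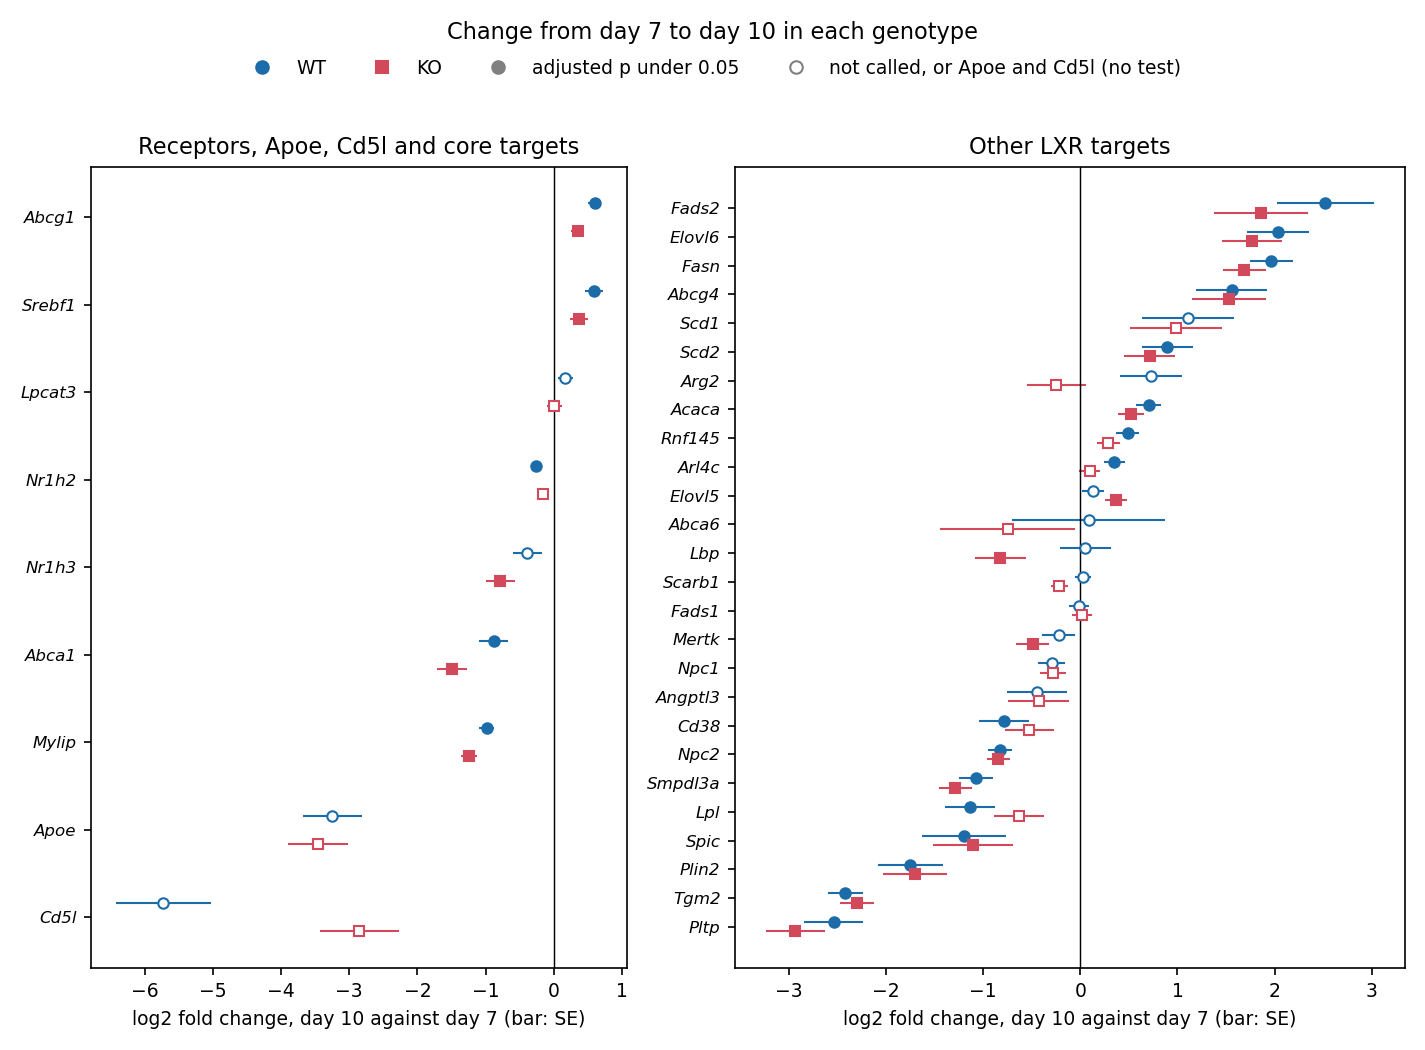
Log2 fold change from day 7 to day 10 (horizontal axes) with its SE as a bar, for 9 genes on the left and 26 other LXR targets on the right, WT as circles and KO as squares, filled where the adjusted p was under 0.05 and open elsewhere and for Apoe and Cd5l, which were not tested. Apoc1 is left out because its day 10 counts were at or under 2. Fads2, Elovl6 and Fasn were highest and Pltp and Tgm2 lowest on the right, in WT as in KO.

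Other LXR targets were divided between the directions as the exporters were. Of 32 listed, 27 were tested, 8 were called higher and 9 lower in WT, and 7 higher and 9 lower in KO, beside 18.9% higher and 18.1% lower of all genes in WT and 19.7% and 17.1% in KO. Their median changes were 0.029 and -0.28 beside -0.015 and 0.0033 over all genes. On the TPM scale the split was 11 higher and 7 lower in WT and 9 and 6 in KO. Over all genes 47.3% were called on that scale in WT and 51.6% in KO. The medians of the listed targets there were 0.26 and 0.0053, beside 0.21 and 0.25 over all genes. The lowest were Pltp, a phospholipid transfer protein, at -2.54 (SE 0.303) in WT and -2.93 (SE 0.307) in KO, and Tgm2, a transglutaminase, at -2.42 (SE 0.177) and -2.30 (SE 0.176). Lower still was Apoc1, an apolipoprotein encoded beside Apoe, which went from 22 to 52 reads a library to 1 or 2 in WT and from 29 to 52 reads to 1 in KO. With so few reads on day 10 no fold is given for it. The highest were Fads2, a fatty acid desaturase, at 2.52 (SE 0.503) and 1.86 (SE 0.486), Elovl6, a fatty acid elongase, at 2.04 (SE 0.317) and 1.77 (SE 0.311), and Fasn at 1.97 (SE 0.225) and 1.69 (SE 0.222). A division by role, made after the values were seen, put 5 (WT) and 6 (KO) of 8 fatty acid genes among the genes called higher and none among those called lower. Among the other 19 tested genes were 3 (WT) and 1 (KO) called higher and 9 called lower in each genotype, and on the TPM scale 5 higher and 7 lower in WT and 3 and 6 in KO.

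Tgm2 and Pltp fell from day 7 to 8 in both genotypes. Tgm2 was at 986 ± 24.7 CPM (SD, n = 3) in WT on day 7 and 168 ± 17.2 CPM on day 8, and Pltp at 265 ± 16.3 and 39.8 ± 1.37 CPM. On day 10 they were at 184 ± 38.7 and 45.6 ± 8.31 CPM. Fasn was already higher on day 8, at 174 ± 8.92 CPM after 64.2 ± 4.09 CPM on day 7 in WT. Fads2 was at 16.1 ± 0.693 CPM on day 7, 11.9 ± 1.05 CPM on day 8 and 92.3 ± 18.8 CPM on day 10. In KO, Fads2 was spread from 36.6 to 131 CPM on day 10.

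The partners and ligands of the receptors were read from lists of their own. Of 14 tested RXRs and coregulators, 1 was called higher in each genotype, the corepressor subunit Hdac3 (0.20 in WT and 0.22 in KO). Called lower were Rxrb in WT (-0.28) and 3 genes in KO, Rxra (-0.36), Rxrb (-0.35) and Ncoa3 (-0.30). Over all genes 37% were called in WT and 36.8% in KO between these days. On the TPM scale 3 (WT) and 4 (KO) were called higher and none lower, beside 47.3% and 51.6% of all genes called. The medians of these 14 genes on that scale were 0.21 and 0.19, beside 0.21 and 0.25 over all genes. Among the enzymes of oxysterol metabolism, Ch25h, which makes the LXR ligand 25-hydroxycholesterol, was called higher in both genotypes (1.89 in WT and 2.01 in KO). Cyp27a1, which makes another oxysterol, was called lower (-0.75 in WT and -0.85 in KO), though not in WT on the TPM scale. Ch25h was highest on day 8, at 21.3 ± 3.60 CPM in WT after 1.29 ± 0.0670 CPM on day 7, and at 4.80 ± 0.571 CPM on day 10. KO had 1.69 ± 0.982, 19 ± 0.935 and 6.78 ± 2.69 CPM on those days.

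Of the receptors for Apoe-bearing particles, Lrp8 rose by 1.38 in WT and by 1.202 in KO. On the TPM scale, of 4 tested receptors, 2 were called higher and 0 lower in WT, and 2 higher and 1 lower in KO. Over all genes 47.3% were called on that scale in WT and 51.6% in KO. Lrp1 was at -0.50 in WT (adjusted p = 0.173) and fell by 0.88 in KO (adjusted p = 0.0185). Around Apoe on chromosome 7, 5 other listed genes were tested. Apoc1, Nectin2 (-0.58 in WT and -0.76 in KO) and Clptm1 (-0.28 and -0.23) were called lower in both genotypes, with none called higher, beside 18.1% of all genes called lower in WT and 17.1% in KO. On the TPM scale 1 was called lower in WT, 2 in KO and 1 higher in each. Apoc2, a cofactor of lipoprotein lipase encoded in the same cluster (chr7:19671579-19677941, minus strand), had 4, 2 and 2 reads in WT and 8, 1 and 7 reads in KO on day 7. It had 0 or 1 read in every library of days 9 and 10. At this depth no level can be set for it.

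Between the genotypes, 0 of 36 tests of these genes over the 4 days were called by edgeR, beside 0.37% over all genes and days, and 6 had an unadjusted p under 0.05, beside 9.26%. DESeq2's Wald test called 1, Cd5l on day 10. The 36 tests include Apoe and Cd5l, which were chosen for their fall over time in these same libraries. For them the counts are no test. Apoe in KO against WT was at 0.07 on day 7 (95% interval -0.76 to 0.90) and -0.14 on day 10 (-0.98 to 0.70). Cd5l on day 10 was higher in all KO libraries than in any WT library, at 1.52 to 9.60 against 0.634 to 0.926 CPM, which 5.47% of all genes also were on that day. The log2 fold change was 2.57 (SE 0.697, 95% interval 1.12 to 4.02, adjusted p = 0.307), it ran from 1.47 without the libraries numbered 67 to 3.01 without those numbered 64, and the adjusted p ran from 0.0158 to 0.998 over the alternatives. The WT libraries of that day are among those that put Cd5l on the list. On day 9 the KO libraries lay just above the WT libraries, at 1.37 to 5.00 against 0.909 to 1.35 CPM, as did 7.62% of all genes, with a log2 fold change of 1.45 (adjusted p = 0.616).

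Abca1 on day 7 was higher in every KO library (275 to 454 CPM) than in any WT library (218 to 268 CPM), as were 11.9% of all genes. The log2 fold change was 0.57 (SE 0.215, 95% interval 0.12 to 1.01, adjusted p = 0.199). On that day 1 of 14 macrophage markers was called higher in KO, Fcgr1 at 0.46 (adjusted p = 0.0204), with a median of 0.24 over the list, and 1 of 5 osteoclast markers was called lower, Ocstamp at -2.0 (adjusted p = 0.0491). Markers of mast cells and basophils, none of them called, ran from 0.14 (Gata2) to 1.38 (Mcpt8). Those of neutrophils, also not called, ran from -0.67 (Retnlg) to 0.88 (Camp). Dendritic cell markers, none of them called either, ran from -0.30 (Itgax) to 1.23 (Cd209a). Their part in the result was not tested. The Abca1 estimates were 0.44 on day 8, 0.35 on day 9 and -0.05 on day 10. Abcg1 was at -0.21 on days 8 and 9 and -0.23 on day 10 (SE 0.095 on each). Its libraries did not overlap on day 8, with 318 to 384 CPM in KO below 386 to 419 CPM in WT (as for 4.99% of all genes in that direction), nor on day 9, with 401 to 454 CPM below 459 to 521 CPM (6.47%). Mylip was at -0.32 on day 10 (SE 0.116, adjusted p = 0.462), with overlap. On day 9 it was at -0.21, and its KO libraries (15.6 to 18.1 CPM) lay below its WT libraries (18.8 to 20.7 CPM), in the direction that 6.47% of all genes shared. Srebf1, Lpcat3, Nr1h3 and Nr1h2 had estimates of 0.28 or less in size on every day. Of the other LXR targets, Arl4c, a small GTPase, was called higher in KO on day 7 (0.47, SE 0.108, adjusted p = 0.0330), beside 1.45% of all genes called on that day. The coactivator Ncoa3 was also called higher (0.30, SE 0.0702, adjusted p = 0.0412).

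**Figure D4:**
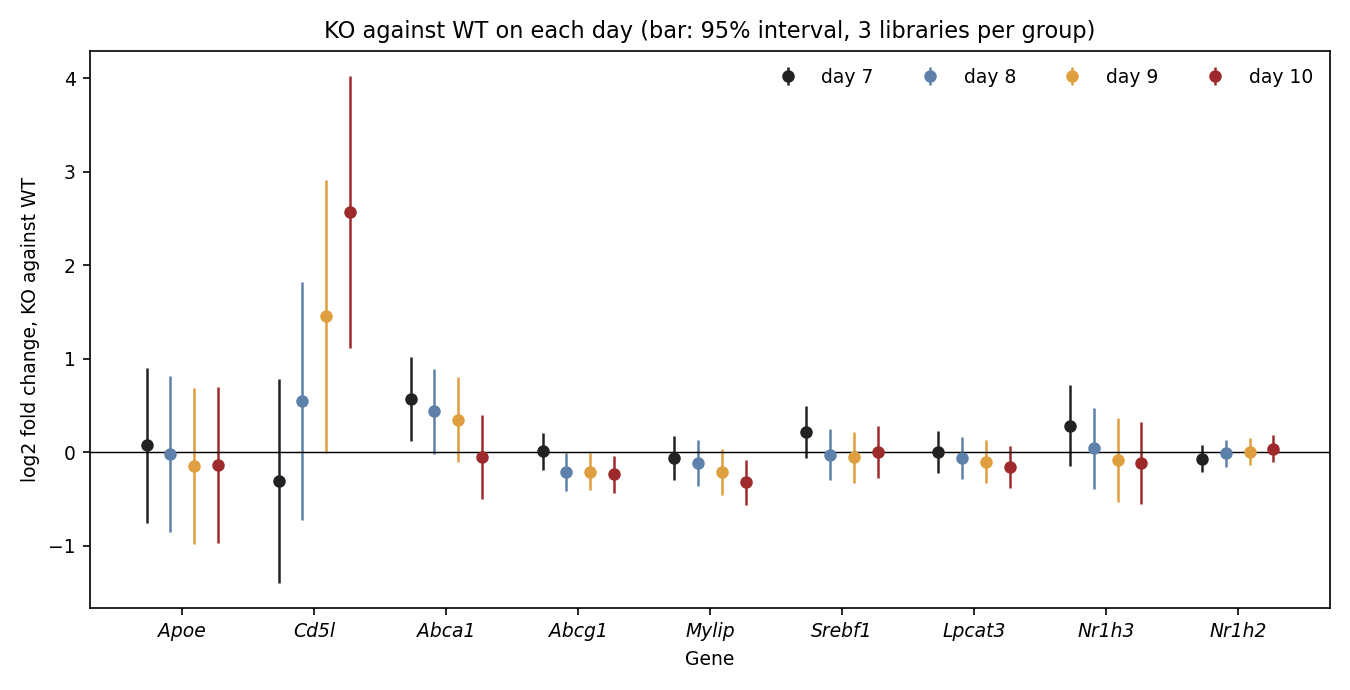
Log2 fold change of KO against WT (vertical axis) for 9 genes on each of the 4 days, with 95% intervals as bars from 3 libraries per group. The interval of Cd5l on day 10 ran from 1.12 to 4.02, and none of the 36 values was called after adjustment over all genes. Apoe and Cd5l were chosen for their fall over time in these same libraries, so their values are a description and no test.

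The difference between genotypes in the change from day 7 to day 10 was called for 0 of 9 genes by edgeR, beside 0.0619% of all genes, and for 0 by DESeq2. These 9 include Apoe and Cd5l, which were chosen for their fall over time, so the count is no test of them. Of the other 7, Abca1 had the lowest unadjusted p by edgeR, 0.0572, while 6.31% of all genes were under 0.05. Abca1 was at -0.61 (95% interval -1.25 to 0.021). Without a test, the change of Cd5l was smaller in KO by 2.88 on the log2 scale (SE 0.875), a value that was 1.36 without the libraries numbered 67. The changes share no library, but Cd5l was chosen on them. Apoe was at -0.21 (SE 0.566).

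KO libraries of a day differed more than WT libraries over all genes, with a chi-square per degree of freedom between pairs of 13.1 to 130.2 in KO and 7.09 to 24.9 in WT, and on each day every KO pair was above every WT pair. This held for Apoe and Cd5l on each day but not for every gene, Lpcat3 among the exceptions. The highest Apoe level was 1.13 to 1.27 times the lowest within a WT group and 2.03 to 3.58 times within a KO group, and for Cd5l these ratios were 1.199 to 1.66 in WT and 3.66 to 6.31 in KO. The lowest KO library for Apoe, Cd5l, Abca1, Abcg1 and Nr1h3 was the same 1 on each day, that numbered 67 on days 7, 8 and 9 and that numbered 64 on day 10. For Mylip, Srebf1, Lpcat3 and Nr1h2 it was another on at least 1 day. The same libraries had the lowest summed macrophage markers of their group, at 3604 CPM against 4506 to 4598 CPM on day 7, 3192 against 4080.5 to 4648 CPM on day 8, 2886 against 3244 to 3624 CPM on day 9 and 2685 against 2967 to 3464 CPM on day 10. They had the highest summed dendritic cell markers, in the same order of days at 3402 against 2738 to 3340 CPM, 4810.2 against 2710 to 3569 CPM, 6694 against 3539 to 4798 CPM and 8273 against 4840 to 6347 CPM. Osteoclast markers were also lowest there on each day, mast cell and basophil markers were highest there on each day, neutrophil markers were highest there on days 7 and 8 only. Of the macrophage markers Timd4 was at 0 in all libraries of 4 groups and Vsig4 in those of 1. The part of these marker levels in the results was not tested.

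The genes whose log2 CPM most resembled that of Apoe over the 24 libraries, among 10487 genes compared, were Parvb (Pearson's r of 0.981), Unc93b1 (0.977), Syk (0.976), Blvrb (0.976) and Dtx4 (0.974). Parvb went from 118 ± 2.34 CPM on day 7 to 54.9 ± 0.875 CPM on day 10 in WT, a smaller change in the same order of days. For Cd5l they were Vcam1 (0.963), Lpin2 (0.945), Trim25 (0.938), Vipas39 (0.934) and Slc15a3 (0.929), and for Abca1 Fn1 (0.939), Gab2 (0.930), Ctsh (0.929), Kif13b (0.926) and Abca9 (0.924). Vcam1 had 17 ± 8.30 CPM on day 7 and 2.15 ± 0.503 CPM on day 10 in WT and 21.9 ± 9.63 and 5.84 ± 3.49 CPM in KO. Fn1 had 1836 ± 205 CPM on day 7 and 307 ± 43.0 CPM on day 8 in WT. Among the listed genes the closest pairs besides Apoe with Cd5l were Abca1 with Mylip (0.863) and Abca1 with Cd5l (0.840), and Abcg1 was closest to Srebf1 (0.752). All libraries share the days of culture, so these coefficients carry no p.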

How the data were processed

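The authors deposited raw counts per gene and TPM values per gene (a per-length abundance) for 55487 gene identifiers, and a table that pairs identifiers with symbols. Per the submitters' processing notes, FastQC 0.11.9, STAR 2.6.1, DESeq2 1.22.2 and the build mm10 were used, and the counting tool, its strand setting and the annotation are not given in the sources used here. Genotype and day labels gave the groups, and all 24 columns of counts matched a sample. Coordinates are those of GENCODE mouse release 21 on GRCm38, and 150 of 150 listed symbols matched 1 identifier each.

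From the counts, 14535 genes that passed filterByExpr were fitted with edgeR 4.0.16 (R 4.3.3), by glmQLFit with TMM scaling, 1 coefficient per group and all 24 libraries sharing the spread, and Benjamini-Hochberg adjustment over all genes tested. The steps were tested on simulated data. Alternatives were DESeq2 1.42.0, limma 3.58.1 on log2(TPM + 1) and with the mouse number as a block, other filters, Xist as a covariate, only the groups compared, and leaving out all libraries of each mouse number. In KO a number may not stand for 1 mouse over the days, given the Ddx3y levels. The genes and lists were chosen with earlier results of these data known. Besides the 10 genes, the text names in each list up to 3 called genes per direction, and for 3 genes the 5 most correlated genes with an average log2 CPM above 1. Spic and Mertk were in the lists of LXR targets and of macrophage markers. Some listed genes are not reported here.

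Mouse numbers recur over the days within a genotype, which pairs libraries per the labels. After subtracting group means, libraries with the same number had a mean correlation of 0.272 in WT (16 of 18 pairs above 0.1) and 0.018 in KO (from -0.780 to 0.779). Replicates are separate mice, and the 2 library kits named in the labels are not assigned to libraries there.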

Additional observations from a re-analysis of the deposited data

How the results depend on the processing

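Over 1755 member values by setting, 1671 kept their direction and side of the threshold, 53 passed it newly, 24 no longer passed it and 7 reversed. The tally includes the changes of Apoe and Cd5l over time. Both genes were chosen for these falls, so for them it says nothing about stability. An uncalled value within 1 SE of 0 was taken to have no direction, which covered 84 sign changes. The count of KO against WT calls, 0, was 1 with DESeq2's Wald test and 1 with no filter on low counts, Cd5l on day 10 in both. The count of calls from day 7 to 10 in KO, 5, was 3 with only the groups compared, and 3 to 5 when each mouse number was left out, the 3 without number 64 or 68. The 8 calls over consecutive days were 5 to 14 when each mouse number was left out, with 14 without number 67 and 5 without number 65 or 66. On log2(TPM + 1), values reversed for Nr1h2 from day 7 to 10 in WT (0.023) and KO (0.154), for Abcg1 from day 7 to 8 in WT (0.216, called there), and from day 7 to 8 in KO for Nr1h2 (0.036) and Srebf1 (0.043). When the libraries of each mouse number were left out, Apoe from day 9 to 10 in KO ran from -1.07 to 0.237 and Cd5l from -0.929 to 1.49. The causes were not tested.

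Under the replicate block on mouse number, the counts of calls were 0 between genotypes, 0 for the difference of changes, 5 in WT, 5 in KO and 9 over the steps (consensus correlation 0.0046). When KO numbers were exchanged (days 8 and 10) so that high Ddx3y stays with 1 number, they were 0, 0, 6, 5 and 19 (0.230). Depth limits Apoc2 and the late levels of Cd5l and Apoc1.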

Other observations

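Most listed genes of cholesterol synthesis and uptake under the control of SREBP2, a transcription factor that acts when sterol is scarce, rose from day 7 to day 10. Of 20 tested, 19 were called higher in WT and 17 in KO, and none lower, beside 18.9% of all genes called higher in WT and 19.7% in KO. The medians were 0.93 and 0.66 on the log2 scale, beside -0.015 and 0.0033 over all genes. The largest were Fdps, farnesyl diphosphate synthase, at 2.72 (SE 0.286) in WT and 2.13 (SE 0.275) in KO, Acat2, which makes acetoacetyl-CoA, at 2.13 (SE 0.202) and 1.55 (SE 0.197), and in WT Idi1 at 1.63 (SE 0.304). Between days 7 and 10 Acat2 went from 5.62 to 6.20 CPM to 23.6 to 28.6 CPM in WT, while KO had 6.43 to 9.00 CPM and then 17.8 to 26.5 CPM, without overlap. Dhcr7, which makes cholesterol in the last step of one branch, was at -0.14 in WT (adjusted p = 0.328) and -0.10 in KO (adjusted p = 0.497). It was chosen after its values were seen, as the 1 gene not called in WT. None of the 20 was called between the genotypes on any day by edgeR, while those with an unadjusted p under 0.05 numbered 2, 5, 4 and 5 from day 7 to day 10, beside 9.26% of all genes over the 4 days.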
